A study of Vitis vinifera with 27 samples.

Results

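The comparison described here is the last step of ripening in berries of the table grape Zaomeiguixiang, from the end of veraison (stage EL36) to harvest ripeness (stage EL38). Its members are the 3 samples labelled Zaomeiguixiang EL38 and the 3 samples labelled Zaomeiguixiang EL36, 6 of the 27 berry samples sequenced, chosen by cultivar and stage alone. Zaomeiguixiang is a Vitis vinifera cultivar with purple-reddish skin and a strong Muscat (floral) aroma. At EL38 the berries were ripe for harvest, and at EL36 veraison was complete and the sugar content intermediate. The other samples are Zaomeiguixiang at EL35, when a small share of the berries had begun to colour and soften, and the cultivars Italia (moderate Muscat aroma) and Xiangfei (strong Muscat aroma, green to golden skin) at the same 3 stages, with 3 samples in each group. All vines grew under a plastic cover in 1 vineyard, and each replicate was a pool of many berries, taken at each stage from a small number of vines. The replicates are therefore separate picks of berries, and the p-values below measure the spread between such picks.

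Veraison is the turn of the grape berry from a hard, green and acid fruit to a soft, coloured and sweet one. Abscisic acid is the hormone most closely tied to its onset in grape, which ripens without the burst of respiration and ethylene of a tomato, and auxin delays it. After veraison the flesh stores hexoses in the vacuole, malate is respired, cell walls are remodelled, and proteins of the pathogenesis-related families, among them thaumatin-like proteins and chitinases, accumulate until harvest. The change from EL36 to EL38 is thus a change within ripening fruit and not the onset of ripening.

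The 6 samples held between 16908559 and 26143184 expected counts (fragments assigned to genes by the authors' model) and listed 18355 to 20958 genes each. The similarity of the samples, as Pearson's r of log2(FPKM + 1) across genes, averaged 0.961 over the pairs of EL38 samples, 0.957 over the pairs of EL36 samples and 0.944 between stages (FPKM is the number of fragments scaled to the length of the transcript and to the depth of the library). Ripening markers were abundant at both stages. A thaumatin-like protein (LOC100242737) had 7170, 12055 and 10225 FPKM at EL38, against 5152, 1579 and 2706 FPKM at EL36 (log2 fold change 1.47, adjusted p = 0.183), and the abscisic stress-ripening protein LOC100250281 had between 8352 and 11447 FPKM at EL38 and between 9693 and 10274 FPKM at EL36. The 32 seed and embryo genes used as markers of seed tissue, of which 1 was at 0 in all 6 samples, summed to 228 to 405 FPKM at EL38 and 241 to 370 FPKM at EL36. Of the samples used for comparison with other cultivars, Xiangfei EL38 replicate 3 stood apart, since its seed and embryo genes summed to 3654 FPKM, against 517 and 256 FPKM in the other Xiangfei EL38 samples and 344 to 717 FPKM in the Xiangfei EL36 samples. The groups also overlapped in the 127 genes of flavonoid and anthocyanin synthesis used for skin (2237 to 5484 FPKM at EL38, 2026 to 4925 FPKM at EL36, 19 genes at 0) and in the 21 genes of green tissue (1046 to 1386 FPKM at EL38, 647 to 1449 FPKM at EL36).

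In edgeR's quasi-likelihood test with Benjamini-Hochberg adjustment, 244 of 18152 genes tested passed an adjusted p of 0.05, which is 1.34% of them. Of these, 90 rose (0.496%) and 154 fell (0.848%) at EL38 relative to EL36. The median rise was 2.69 and the median fall -2.35 on the log2 scale, and all 244 changed by more than 2-fold. For all 244 the 3 EL38 values lay outside the range of the 3 EL36 values in FPKM, as they did for 21.7% of the genes tested (13.1% above and 8.59% below). DESeq2, run as an alternative on the same samples, called 907 genes, 4.51% of those it tested, with 1.65% higher and 2.86% lower. In edgeR 2554 of the 18152 genes had an unadjusted p under 0.05, 1166 of them higher and 1388 lower. The tissue was whole berries, so fewer cells of a type and less RNA per cell cannot be told apart. The number of calls rested on every sample. It was 48, 51 and 47 without EL38 replicate 1, 2 and 3, and 132, 135 and 93 without EL36 replicate 1, 2 and 3. In each of these 6 fits all 244 genes kept their sign, which was nearly fixed in advance, since their groups did not overlap in FPKM. Of the 244, 18 were called in all 6 fits and 76 in none. Below, a gene is said to hold in n of 6 fits when it was called in n of these. The EL36 berries and the EL38 berries were picked on different days, and neither the dates nor the hour of picking are given in the sources used here, so stage and day of picking cannot be told apart.

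Heat shock genes were the list with the most calls among the 27 lists of genes examined, and all of them rose. The genes of hormone response and the NAC and WRKY transcription factors were called mostly in the other direction. The share called in each list stands beside that over all genes, 1.34%, with 0.496% higher and 0.848% lower.

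**Figure D1:**
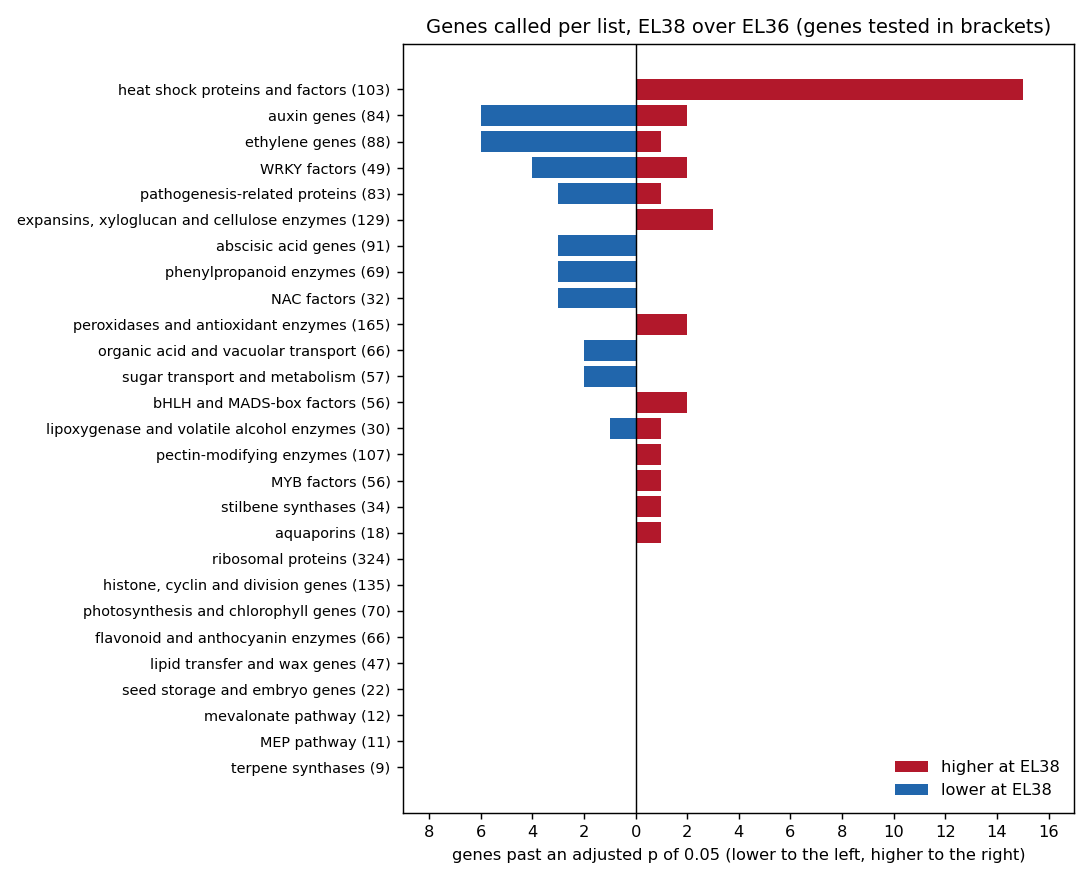
Number of genes past an adjusted p of 0.05 in each list of gene names, for Zaomeiguixiang EL38 over EL36, with genes higher at EL38 drawn to the right and genes lower at EL38 to the left, and the number of genes tested in brackets. The longest bar is that of heat shock proteins and factors, with 15 higher and 0 lower of 103. The ethylene and auxin lists reach 6 lower genes each, and 9 lists have no bar.

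The gene with the smallest adjusted p was a gibberellin 2-beta-dioxygenase (LOC100264177), an enzyme that inactivates gibberellins, the hormones of growth and berry enlargement. It had 3.76, 3.36 and 5.87 FPKM in EL38 berries, against 80.3, 103 and 86.9 FPKM in EL36 berries. The groups were far apart, and the gene fell 22.4-fold at EL38 (log2 fold change -4.49, SE 0.34, adjusted p = 0.00187), a call that held in all 6 fits. Of 24 genes in a gibberellin list assembled after values were seen, 4 fell and 1 rose (20.8%, against 1.34% of all genes). With the list chosen in this way, its share is no test of gibberellin genes as a group. A second gibberellin 2-beta-dioxygenase (LOC100248356) had 0.47, 2.05 and 1.35 FPKM at EL38, against 8.93, 10.7 and 9.02 FPKM at EL36 (log2 fold change -2.99, SE 0.51, adjusted p = 0.0264). The other members that fell, not named for gibberellin themselves, were 2 genes for scarecrow-like protein 33. They are of the GRAS family, to which the DELLA repressors of gibberellin response belong. LOC100251782 had 25.0, 16.3 and 14.7 FPKM at EL38, against 90.4, 78.5 and 78.5 FPKM at EL36 (log2 fold change -2.32, SE 0.29, adjusted p = 0.00965). The member that rose is annotated through KEGG orthology as ent-copalyl diphosphate synthase (LOC100264747), the enzyme that opens the pathway to gibberellins, with 1.97, 4.60 and 2.24 FPKM at EL38, against 0.16, 0.19 and 0.06 FPKM at EL36 (log2 fold change 4.28, SE 0.67, adjusted p = 0.0215).

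Auxin genes were called in both directions, with more of them lower at EL38. Of 84 tested, 6 fell and 2 rose (9.52% called, against 1.34% of all genes). The median log2 fold change was -0.43, against 0.04 over all genes. GH3.1 (LOC100250741), of the enzymes that join auxin to amino acids and so take it out of use, had 19.7, 8.11 and 19.0 FPKM at EL38, against 314, 198 and 274 FPKM at EL36. This was an 18.4-fold fall (log2 fold change -4.20, SE 0.45, adjusted p = 0.00588) that held in all 6 fits. Auxin-induced protein 22D (LOC100259648), of the Aux/IAA family that represses auxin response, had 2.34, 6.36 and 2.60 FPKM at EL38, against 41.8, 31.4 and 39.3 FPKM at EL36 (log2 fold change -3.46, SE 0.44, adjusted p = 0.00965). Its adjusted p was 0.0547 without EL38 replicate 3. The auxin efflux carrier component 3 (LOC100268124), which carries auxin out of cells, had 13.7, 24.6 and 23.3 FPKM at EL38, against 108, 73.5 and 78.1 FPKM at EL36 (log2 fold change -2.21, SE 0.35, adjusted p = 0.0215, held in 3 of 6 fits). The 2 genes that rose were the small auxin-induced protein X15 (LOC100241753), with 246, 204 and 180.3 FPKM at EL38, against 73.8, 82.6 and 85.1 FPKM at EL36, and an IAA-amino acid hydrolase (LOC100263860), which frees auxin from its conjugates, with 8.30, 9.03 and 8.28 FPKM at EL38, against 1.40, 2.95 and 1.58 FPKM at EL36. Neither rise held in any fit with a sample left out (adjusted p up to 0.158 and 0.155). The 6 falls of the list were 4, 4 and 3 without EL36 replicate 1, 2 and 3, and 2, 3 and 1 without EL38 replicate 1, 2 and 3.

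More ethylene genes were called lower than higher at EL38, and those that fell were transcription factors of the ethylene response family (ERF). Of 88 tested, 6 fell and 1 rose (7.95% called, against 1.34% of all genes), with a median log2 fold change of -0.51. The list summed to 2332, 2027 and 2074 FPKM at EL38 and to 3203, 2904 and 3069 FPKM at EL36, with no overlap. ERF2 (LOC100254640) had 52.0, 40.7 and 26.0 FPKM at EL38, against 209, 251 and 172 FPKM at EL36 (log2 fold change -2.54, SE 0.31, adjusted p = 0.00903). ABR1 (LOC100262406), whose Arabidopsis namesake represses responses to abscisic acid, had 1.78, 3.16 and 5.04 FPKM at EL38, against 29.8, 95.4 and 55.2 FPKM at EL36, an 18.8-fold fall (log2 fold change -4.23, SE 0.51, adjusted p = 0.00903) that held in all 6 fits. ERF4, a repressor of gene expression in Arabidopsis, is the name of 2 members. LOC100243603 had 19.3, 5.58 and 13.4 FPKM at EL38, against 160.4, 77.5 and 205 FPKM at EL36 (log2 fold change -3.68, SE 0.54, adjusted p = 0.0179), and LOC100248784 had 71.2, 33.03 and 31.3 FPKM at EL38, against 185, 190.5 and 189.9 FPKM at EL36 (log2 fold change -2.20, SE 0.35, adjusted p = 0.0215). ERF110 (LOC100264647) had 0.30, 0.65 and 2.42 FPKM at EL38, against 23.0, 34.7 and 18.2 FPKM at EL36 (log2 fold change -4.58, SE 0.70, adjusted p = 0.0206). The factor that rose was ERF014-like (LOC100853357), with 61.2, 27.8 and 48.7 FPKM at EL38, against 6.77, 9.25 and 12.2 FPKM at EL36 (log2 fold change 2.17, SE 0.37, adjusted p = 0.0264, held in 1 of 6 fits). The calls of ERF2 and ERF110 were lost without EL38 replicate 2 (adjusted p = 0.0509 and 0.0849), and that of LOC100243603 without EL38 replicate 3 (adjusted p = 0.0696). The count of falls was 3 without EL38 replicate 2 and 3 without EL38 replicate 3, and between 4 and 7 without any of the other 4 samples.

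The abscisic acid list had 3 of 91 genes lower and 0 higher (3.30% called, against 1.34% of all genes). Its median log2 fold change was 0.06. The 3 were a biosynthetic enzyme and 2 receptors. NCED1, which cuts the carotenoid precursor in the step that sets the rate of abscisic acid synthesis, had 11.6, 9.77 and 12.1 FPKM at EL38, against 57.8, 22.5 and 117 FPKM at EL36 (log2 fold change -2.71, SE 0.54, adjusted p = 0.0429). The EL36 samples spread widely and the EL38 samples did not. The receptor PYL9 (LOC100243084) had 6.49, 14.9 and 13.1 FPKM at EL38, against 68.8, 65.3 and 100.1 FPKM at EL36 (log2 fold change -2.90, SE 0.39, adjusted p = 0.0124), and the receptor PYL4 (LOC100267073) had 1.71, 5.19 and 11.3 FPKM at EL38, against 91.9, 133 and 24.4 FPKM at EL36 (log2 fold change -3.85, SE 0.75, adjusted p = 0.0414). PYL9 held in 5 of 6 fits and missed the threshold without EL38 replicate 3 (adjusted p = 0.0511), while NCED1 and PYL4 each held in 1 (adjusted p up to 0.178 and 0.167). An enzyme that joins abscisic acid to glucose, abscisate beta-glucosyltransferase (LOC100248565), was also lower, at 16.0, 17.8 and 10.5 FPKM at EL38, against 48.2, 44.2 and 46.2 FPKM at EL36 (log2 fold change -1.78, SE 0.28, adjusted p = 0.0215). It was chosen after its values were seen and lies outside the list.

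Among transcription factors, 3 of 32 NAC genes fell and 0 rose (9.38% called, against 1.34% of all genes). NAC72 (LOC100243607), related to the Arabidopsis factors of drought response and leaf senescence, had 48.7, 74.4 and 37.4 FPKM at EL38, against 237, 297 and 329 FPKM at EL36, a 5.88-fold fall (log2 fold change -2.56, SE 0.31, adjusted p = 0.00903). NAC29 (LOC104879728), named for an Arabidopsis senescence factor, had 10.9, 12.0 and 6.03 FPKM at EL38, against 56.8, 76.8 and 106 FPKM at EL36, a 9.03-fold fall (log2 fold change -3.18, SE 0.36, adjusted p = 0.00696). Both calls held in all 6 fits. The third, NAC68 (LOC100263939), was near absent at EL38, with 2 counts over the 3 samples against 271 at EL36 (0.10, 0 and 0 FPKM against 3.22, 4.30 and 2.69 FPKM), a ratio of 110.2 with a 95% counting interval of 30.2 to 914. Its call held in none of the 6 fits (adjusted p up to 0.0959).

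Of 49 WRKY genes, the factors of defence and senescence, 4 fell and 2 rose (12.2% called, against 1.34% of all genes). WRKY33 (LOC100243352) had 86.7, 72.9 and 97.5 FPKM at EL38, against 221, 288 and 226 FPKM at EL36 (log2 fold change -1.62, SE 0.27, adjusted p = 0.0257), and WRKY41 (LOC100253577) had 1.82, 3.03 and 1.26 FPKM at EL38, against 19.4, 10.6 and 31.0 FPKM at EL36 (log2 fold change -3.50, SE 0.51, adjusted p = 0.0179). The 2 that rose were almost silent at EL36. WRKY51 (LOC100266268) had 9.23, 14.9 and 2.83 FPKM at EL38, against 0.32, 0.41 and 0.05 FPKM at EL36 (log2 fold change 4.94, SE 0.89, adjusted p = 0.0323), and a gene annotated through KEGG as WRKY22 (LOC100255013) had 14.9, 13.4 and 7.49 FPKM at EL38, against 0.37, 1.07 and 0.04 FPKM at EL36 (log2 fold change 4.48, SE 0.81, adjusted p = 0.0334). A different gene named WRKY22 (LOC100251862) was among those that fell. The WRKY calls were the less firm ones. The falls were between 0 and 3 with a sample left out, with 0 without EL38 replicate 1 and 0 without EL38 replicate 3, and the rises were 0 or 1.

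Other regulators changed as single genes. The MYB-like factor DIVARICATA (LOC100263868), named for a snapdragon gene of flower asymmetry, had 0.55, 1.70 and 2.09 FPKM at EL38, against 15.4, 32.6 and 24.1 FPKM at EL36, a 17.6-fold fall that held in all 6 fits (log2 fold change -4.14, SE 0.53, adjusted p = 0.00965). MYB44-like (LOC100243698), of a group that acts in stress and abscisic acid responses in Arabidopsis, was the only call among 56 MYB genes (1.79%, near the 1.34% of all genes). It rose, with 299, 196 and 248 FPKM at EL38, against 63.1, 63.8 and 64.3 FPKM at EL36 (log2 fold change 1.83, SE 0.28, adjusted p = 0.0203, held in 2 of 6 fits). Of 56 bHLH and MADS-box genes, 2 rose and 0 fell (3.57% called, against 1.34% of all genes), with 6 higher and 5 lower at an unadjusted p under 0.05. The calls were bHLH113 (LOC100243890) with a log2 fold change of 2.15 (SE 0.35, adjusted p = 0.0257) and bHLH149 (LOC100257469) with 1.83 (SE 0.38, adjusted p = 0.0493). They held in 1 and 0 of 6 fits. The 2 following genes were picked after their values were seen, for their steadiness within each stage. The zinc finger protein ZAT5 (LOC100252049) had 111, 79.8 and 88.3 FPKM at EL38, against 20.9, 19.2 and 19.1 FPKM at EL36 (log2 fold change 2.11, SE 0.27, adjusted p = 0.0104), and the F-box/kelch-repeat protein SKIP20-like (LOC100250782), of the proteins that select targets for ubiquitin ligases, had 154, 128 and 108 FPKM at EL38, against 21.7, 17.0 and 14.9 FPKM at EL36 (log2 fold change 2.72, SE 0.30, adjusted p = 0.00622). Of the 5 rises that held in all 6 fits, that of SKIP20-like was the only one with over 100 FPKM in each EL38 sample.

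The EL35 samples place these genes in the course of ripening. The EL36 samples enter both steps, from EL35 to EL36 and from EL36 to EL38, so the steps are not independent, and their values are given side by side with no comparison of them. EL36 over EL35 gave 573 called genes of 17905 (3.2%), 254 higher (1.42%) and 319 lower (1.78%). The gibberellin 2-beta-dioxygenase LOC100264177 had 20.9, 4.34 and 23.4 FPKM at EL35, and its log2 fold change for EL36 over EL35 was 2.57 (adjusted p = 0.0286). GH3.1 had 71.1, 112 and 94.0 FPKM at EL35 (EL36 over EL35: 1.47, adjusted p = 0.1). NAC72 had 178, 179 and 217 FPKM at EL35 (0.56, adjusted p = 0.382), so that its 3 EL38 values were below all values of both earlier stages. ZAT5 had 9.63, 11.7 and 10.2 FPKM at EL35, whereas SKIP20-like had 67.3, 57.9 and 49.7 FPKM at EL35, above its EL36 values and below its EL38 values.

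**Figure D2:**
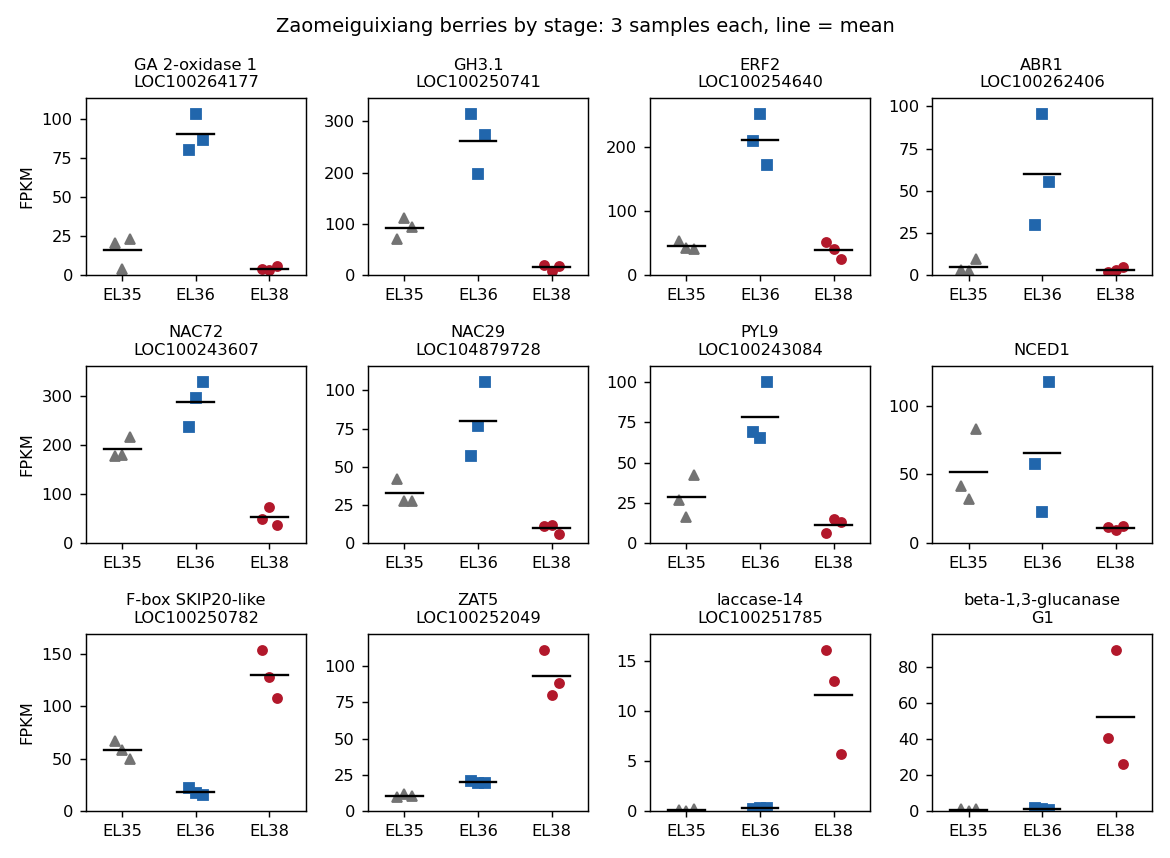
FPKM of 12 genes in Zaomeiguixiang berries at EL35 (triangles), EL36 (squares) and EL38 (circles), with 3 samples at each stage and a line at their mean. Gibberellin 2-oxidase 1, GH3.1, ERF2, ABR1, NAC29 and PYL9 are highest at EL36, NAC72 is 48.7, 74.4 and 37.4 FPKM at EL38 below both earlier stages, and laccase-14 and the beta-1,3-glucanase are near 0 until EL38.

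Heat shock proteins are chaperones that bind other proteins and keep them from clumping or help them to refold, and the heat shock factors switch on their genes. In Zaomeiguixiang 15 of the 103 heat shock genes tested rose and 0 fell, 14.6% of the list against 1.34% of all genes. At an unadjusted p under 0.05 there were 47 higher and 3 lower, against 1166 higher and 1388 lower of the 18152 genes tested. DESeq2 called 34 higher and 2 lower in the list, and 84 of the 103 had a positive log2 fold change. The median of the list was 0.79, against 0.04 over all genes. The FPKM of the list summed to 11711, 7158 and 7900 at EL38, against 4867, 4977 and 5371 at EL36. All 3 EL38 samples were above the EL36 samples, and EL38 replicate 1 was the highest.

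The 15 genes spanned several chaperone classes. Most were small heat shock proteins, which hold unfolding proteins in soluble form. The class I protein LOC100242821 had 393, 138 and 159.8 FPKM at EL38, against 35.9, 23.4 and 36.8 FPKM at EL36, a 6.47-fold rise (log2 fold change 2.69, SE 0.44, adjusted p = 0.0252). Among class II proteins, LOC100268136 had 391, 165 and 80.7 FPKM at EL38, against 15.8, 40.6 and 18.7 FPKM at EL36 (log2 fold change 2.94, SE 0.55, adjusted p = 0.0349), and LOC100266315 had 227, 276 and 88.7 FPKM at EL38, against 18.8, 32.6 and 42.2 FPKM at EL36 (log2 fold change 2.53, SE 0.43, adjusted p = 0.0264). These 2 class II genes differed in which EL38 sample was highest, and both were lowest in EL38 replicate 3. The mitochondrial small heat shock protein LOC100253548 had the largest rise of the 15, 13.3-fold, with 318, 44.6 and 105 FPKM at EL38, against 8.79, 12.9 and 10.6 FPKM at EL36 (log2 fold change 3.74, SE 0.62, adjusted p = 0.0257). Of the large chaperones, the disaggregase HSP101, which pulls proteins out of aggregates, had 205, 102 and 109 FPKM at EL38, against 16.6, 46.7 and 28.4 FPKM at EL36 (log2 fold change 2.11, SE 0.39, adjusted p = 0.0349). A heat shock 70 kDa protein (LOC100265708) had 292, 170.1 and 106 FPKM at EL38, against 39.9, 20.6 and 50.0 FPKM at EL36 (log2 fold change 2.19, SE 0.45, adjusted p = 0.0475). HSP83 (LOC100265661), of the HSP90 class that matures signalling proteins, had 199, 46.0 and 86.7 FPKM at EL38, against 2.37, 12.3 and 13.3 FPKM at EL36 (log2 fold change 3.49, SE 0.66, adjusted p = 0.0397). HSP101, LOC100265708 and LOC100265661 are outside the rule for named genes and were chosen after their values were seen. The calls of LOC100268136 and LOC100253548 held in 2 of 6 fits each, and those of LOC100242821, LOC100266315 and HSP101 in 1 each. Those of LOC100265708 and LOC100265661 held in 0 of 6 fits. A co-chaperone of HSP70, the DnaJ protein LOC100261077, rose as well (log2 fold change 2.98, SE 0.42, adjusted p = 0.0165). Of the 88 DnaJ genes, a list assembled after values were seen, 2 rose and 2 fell (4.55% called, against 1.34% of all genes). Many small heat shock genes are close copies, between which the counting model may have divided shared reads.

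**Figure D3:**
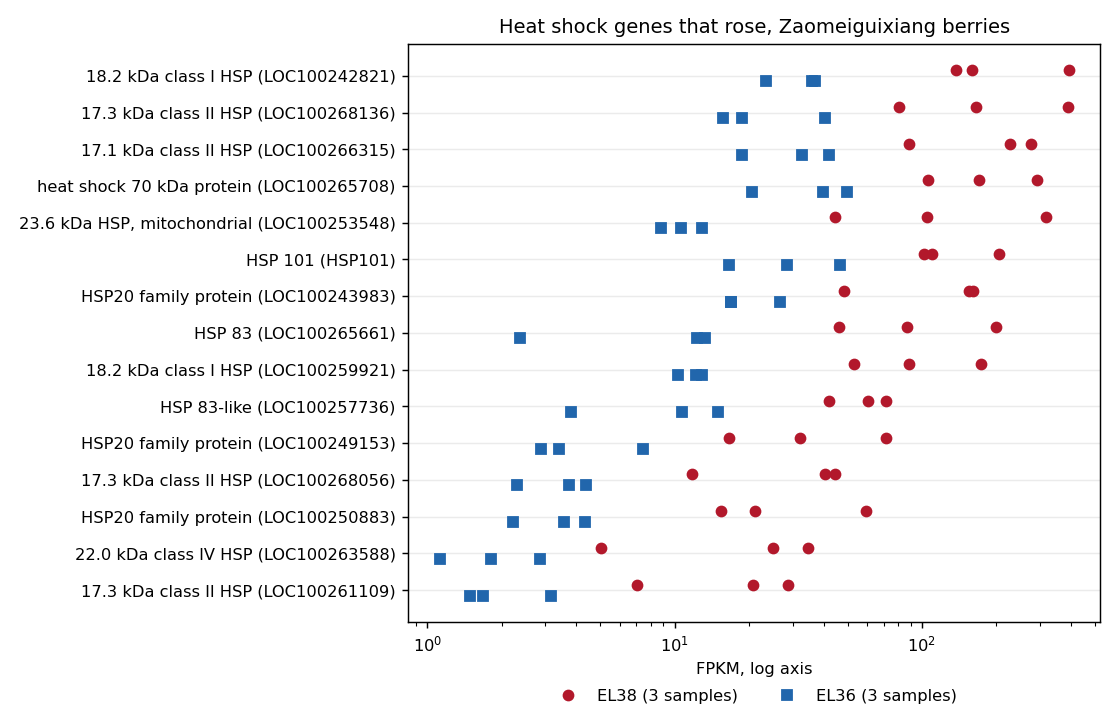
FPKM on a log axis of the 15 heat shock genes that rose in Zaomeiguixiang, in the 3 EL38 samples (circles) and the 3 EL36 samples (squares). In each line the circles lie to the right of the squares, with a wide spread of the circles for the mitochondrial protein LOC100253548, 318, 44.6 and 105 FPKM at EL38, against 8.79, 12.9 and 10.6 FPKM at EL36.

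The number of heat shock calls depended on single samples and on the fit. It was 8 with total counts as the scaling, 8 with the replicate number as a block, 6 with all 9 Zaomeiguixiang samples in the fit and 0 with all 27. It was 2, 3 and 8 without EL38 replicate 1, 2 and 3, and 1, 5 and 1 without EL36 replicate 1, 2 and 3, with 0 lower in each. In the other cultivars the median log2 fold change of these genes for EL38 over EL36 was 0.04 in Italia (89 tested) and 0.71 in Xiangfei (93 tested), with 0 called in each. Without Xiangfei EL38 replicate 3 the Xiangfei median was 0.36 (96 tested), again with 0 called. The difference from Zaomeiguixiang was past the threshold for 0 members in either cultivar, with and without that sample. A few genes of the daily clock fell in the same 6 samples. Of 36 clock and day-length genes, 3 fell and 0 rose (8.33% called, against 1.34% of all genes). At an unadjusted p under 0.05, 10 were lower and 1 higher, and the median log2 fold change was -0.26. This list was assembled after values were seen, so its counts are no test of clock genes as a group. Cyclic dof factor 2 (LOC100254372), which in Arabidopsis holds back flowering in the morning, had 9.66, 19.9 and 9.90 FPKM at EL38, against 59.1, 52.1 and 50.0 FPKM at EL36 (log2 fold change -2.17, SE 0.34, adjusted p = 0.0215), and EARLY FLOWERING 3 (LOC100256592) and CONSTANS-LIKE 9 (LOC100254423) fell with log2 fold changes of -2.12 and -2.46. The part of the time of day at picking in the heat shock result was not tested.

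Several genes that plants switch on when phosphate is short fell at EL38. Of 82 genes of phosphate supply, a list assembled after values were seen, 5 fell and 0 rose (6.10% called, against 1.34% of all genes). At an unadjusted p under 0.05, 10 were lower and 5 higher. The list's median log2 fold change was 0.00, so the falls were those of single members. SPX domain-containing protein 1 (LOC100243923), a sensor that restrains the phosphate starvation response, had 1.40, 1.38 and 3.71 FPKM at EL38, against 63.1, 56.0 and 44.9 FPKM at EL36. This 27.4-fold fall (log2 fold change -4.78, SE 0.49, adjusted p = 0.00474) held in all 6 fits. A gene annotated through KEGG as sulfoquinovosyltransferase (LOC104879540), the enzyme of the sulfolipid that stands in for phospholipids, had 0.08, 0 and 0.52 FPKM at EL38, against 6.28, 33.3 and 25.8 FPKM at EL36 (log2 fold change -6.92, SE 1.06, adjusted p = 0.0211), and missed the threshold without EL38 replicate 1 (adjusted p = 0.0873). Inorganic pyrophosphatase 2 (LOC100248102) had 2.73, 2.13 and 2.42 FPKM at EL38, against 17.5, 113 and 24.6 FPKM at EL36 (log2 fold change -4.46, SE 0.65, adjusted p = 0.0179, held in 3 of 6 fits). The glycerol-3-phosphate transporter LOC100258691 (13.0, 17.8 and 18.0 FPKM at EL38, 63.0, 62.9 and 56.3 FPKM at EL36, log2 fold change -2.02, SE 0.28) and the glycerophosphodiester phosphodiesterase GDPD1 (LOC100261754, log2 fold change -2.34, SE 0.41) completed the 5.

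Several genes tied to sugar use and low energy fell with them. Of 57 genes of sugar transport and metabolism, 2 fell and 0 rose (3.51% called, against 1.34% of all genes). The summed FPKM of the list was between 3749 and 3805 at EL38 and between 3641 and 3899 at EL36. The hexose transporter LOC100233083 had 8.62, 10.5 and 11.3 FPKM at EL38, against 121, 80.1 and 55.0 FPKM at EL36, a 9.09-fold fall (log2 fold change -3.18, SE 0.38, adjusted p = 0.00826) that held in all 6 fits. The sucrose transporter VVSUC27 had 3.32, 5.10 and 1.54 FPKM at EL38, against 11.3, 12.9 and 44.4 FPKM at EL36 (log2 fold change -2.92, SE 0.60, adjusted p = 0.0479, held in 1 of 6 fits). The more abundant hexose transporter HT6 had 219, 232 and 239 FPKM at EL38, against 401, 225 and 316 FPKM at EL36, with overlapping groups (log2 fold change -0.60, adjusted p = 0.449), and the 14 hexose transporters used as a marker list, 6 of them at 0 in all samples, summed to 467 to 487 FPKM at EL38 and to 547 to 837 FPKM at EL36. Of 25 genes of trehalose phosphate and raffinose, again a list assembled after values were seen, 3 fell and 0 rose (12% called). Galactinol-sucrose galactosyltransferase (LOC100242394), the enzyme that makes raffinose, had 2.51, 1.78 and 1.84 FPKM at EL38, against 14.9, 14.6 and 18.4 FPKM at EL36 (log2 fold change -3.09, SE 0.31, adjusted p = 0.00474, held in all 6 fits), and 2 genes for trehalose-phosphate synthase, LOC100251811 and LOC100252552, fell with log2 fold changes of -2.77 and -1.36. Of 21 bZIP factors, in a list of the same kind, 3 fell and 0 rose (14.3% called). bZIP53 (LOC100257331), of a group that responds to low energy in Arabidopsis, had 7.70, 8.18 and 11.7 FPKM at EL38, against 97.8, 71.0 and 44.9 FPKM at EL36 (log2 fold change -3.10, SE 0.39, adjusted p = 0.00965). The ocs element-binding factor 1-like gene (LOC100260200) had 1.07, 0 and 1.37 FPKM at EL38, against 27.5, 20.8 and 20.6 FPKM at EL36 (log2 fold change -4.99, SE 0.90, adjusted p = 0.0322, held in 1 of 6 fits), and the basic leucine zipper 1-like gene (LOC104878442) had 0 counts at EL38 and 167 over the EL36 samples, so it was at least 45.3-fold lower against a floor of 3 counts over the group.

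**Figure D4:**
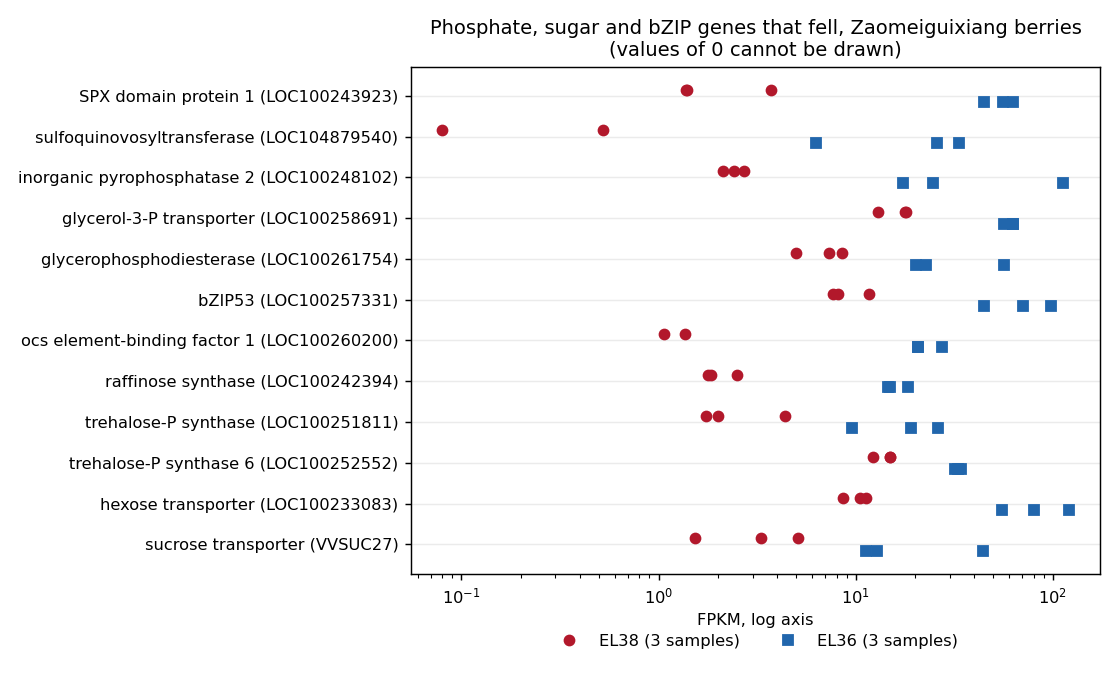
FPKM on a log axis of 12 genes of phosphate supply, bZIP factors and sugar metabolism that fell in Zaomeiguixiang, in the 3 EL38 samples (circles) and the 3 EL36 samples (squares). All circles lie to the left of the squares in each line, and the 0 FPKM values of EL38 replicate 2 for LOC104879540 and LOC100260200 cannot be drawn on this axis.

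In acid and energy metabolism, 2 of 66 genes of organic acids and vacuolar transport fell and 0 rose (3.03% called, against 1.34% of all genes). NADP-dependent malic enzyme (LOC100249166), which turns malate into pyruvate, had 16.5, 11.4 and 13.5 FPKM at EL38, against 44.1, 71.0 and 31.9 FPKM at EL36 (log2 fold change -1.93, SE 0.32, adjusted p = 0.0257), and a tonoplast dicarboxylate transporter (LOC100255398), which moves malate across the vacuolar membrane, had 4.55, 4.70 and 4.72 FPKM at EL38, against 14.3, 61.5 and 11.3 FPKM at EL36 (log2 fold change -2.72, SE 0.56, adjusted p = 0.0479). Each held in 1 of 6 fits. Among the most abundant genes that fell, pyruvate decarboxylase 2 (LOC100232858), the entry to alcoholic fermentation, had 216, 311 and 289 FPKM at EL38, against 942, 833 and 813 FPKM at EL36 (log2 fold change -1.79, SE 0.29, adjusted p = 0.0255). Arginine decarboxylase (LOC100233080), which starts a route to the polyamine putrescine, had 161, 138 and 148 FPKM at EL38, against 615, 344 and 531 FPKM at EL36 (log2 fold change -1.88, SE 0.33, adjusted p = 0.0306). They held in 2 and 1 of 6 fits.

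Few genes of cell wall enzymes were called. Of 129 genes of expansins, xyloglucan and cellulose enzymes 3 rose and 0 fell, and of 107 pectin genes 1 rose and 0 fell, shares of 2.33% and 0.935% against 1.34% of all genes. DESeq2 called 12 higher and 4 lower in the first list and 3 higher and 3 lower among the pectin genes, of which 54 had a positive and 53 a negative log2 fold change. Of these, 2 were xyloglucan endotransglucosylase/hydrolases, which cut and rejoin the xyloglucan chains between cellulose fibres. LOC100263324 had 208, 31.1 and 109.7 FPKM at EL38, against 8.96, 10.8 and 11.8 FPKM at EL36 (log2 fold change 3.34, SE 0.58, adjusted p = 0.0265), and LOC100241119 had 73.7, 11.9 and 28.9 FPKM at EL38, against 1.76, 5.14 and 4.08 FPKM at EL36 (log2 fold change 3.28, SE 0.64, adjusted p = 0.0414). In both, EL38 replicate 1 was the highest and replicate 2 the lowest of the EL38 samples, and each held only in the fit without EL38 replicate 2. ALTERED XYLOGLUCAN 4 (LOC100241586), which adds acetyl groups to xyloglucan, had a log2 fold change of 1.71 (SE 0.33, adjusted p = 0.0399), and the galacturonosyltransferase-like gene LOC100241606, named for pectin synthesis, one of 3.18 (SE 0.61, adjusted p = 0.0403). They held in 0 and 1 of 6 fits.

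Defence genes changed in both directions. Of 83 pathogenesis-related genes, 1 rose and 3 fell (4.82% called, against 1.34% of all genes). The list summed to 29188, 27858 and 24516 FPKM at EL38, against 21169, 7883 and 8953 FPKM at EL36. EL36 replicate 1 stood above the other EL36 samples, and without it 10 of these genes rose and 3 fell. A chitinase 4-like gene (LOC100244031) was the call that rose, with 5.82, 9.31 and 7.92 FPKM at EL38, against 0, 0.43 and 0 FPKM at EL36 (log2 fold change 5.62, SE 1.15, adjusted p = 0.0477, held in 1 of 6 fits). G1, annotated as a beta-1,3-glucanase precursor and thus of the same defence class though not matched by the list, rose more firmly, with 40.7, 89.9 and 26.2 FPKM at EL38, against 1.81, 1.02 and 0.64 FPKM at EL36 (log2 fold change 5.33, SE 0.60, adjusted p = 0.00659, held in all 6 fits). The 3 that fell were a glucan endo-1,3-beta-glucosidase (LOC100259000, log2 fold change -4.63, SE 0.71), thaumatin-like protein 1b (LOC100257373, -2.19, SE 0.32) and a transcriptional activator of pathogenesis-related genes (LOC100246641, -2.17, SE 0.33). Thaumatin-like protein 1b had 8.58, 6.64 and 5.61 FPKM at EL38, against 23.7, 43.5 and 24.9 FPKM at EL36, far below the thaumatin-like LOC100242737 in level and opposite to it in the sign of its change.

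Laccase-14 (LOC100251785), of the enzymes that oxidize phenols in lignin and other polymers, was almost absent at EL36. It had 16.2, 13.0 and 5.71 FPKM at EL38, against 0.19, 0.34 and 0.29 FPKM at EL36, a 38.6-fold rise (log2 fold change 5.27, SE 0.48, adjusted p = 0.00474) that held in all 6 fits. A gene beyond the reference annotation, placed by KEGG among the laccases and chosen after its values were seen, had 376 counts over the EL38 samples and 0 over the EL36 samples (at least 154-fold higher against a floor of 3 counts over the group). L-ascorbate oxidase (LOC100252644), an enzyme of the cell wall space, had 13.4, 21.3 and 15.0 FPKM at EL38, against 1.48, 0.65 and 2.51 FPKM at EL36 (log2 fold change 3.57, SE 0.44, adjusted p = 0.00903, held in all 6 fits), and the subtilisin-like protease SBT3.5 (LOC100264034) had 7.68, 10.5 and 5.51 FPKM at EL38, against 0.55, 0.68 and 0.30 FPKM at EL36 (log2 fold change 3.83, SE 0.44, adjusted p = 0.00696, held in all 6 fits). A glutathione S-transferase (LOC100263691) had 294 counts at EL38 and 3 at EL36, a ratio of 121 (95% counting interval 40.8 to 588), and a water channel annotated through KEGG as aquaporin NIP (LOC109122021) had 238 counts at EL38 and 0 at EL36, at least 97.6-fold higher. These genes share a pattern of near silence at EL36, and their levels at EL38 stayed below 25 FPKM.

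Phenylpropanoid genes, which lead from phenylalanine to lignin, pigments and stilbenes, had 3 lower and 0 higher calls of 69 (4.35%, against 1.34% of all genes). The list as a whole had no clear direction. It had 12 genes higher and 12 lower at an unadjusted p under 0.05, and a median log2 fold change of -0.05. DESeq2 called 6 higher and 8 lower. With a sample left out, the lower calls were 0 or 1. Phenylalanine ammonia-lyase, the first enzyme of the route, fell in 2 of its genes. LOC100245997 had 8.06, 8.32 and 6.29 FPKM at EL38, against 64.3, 30.3 and 22.8 FPKM at EL36 (log2 fold change -2.54, SE 0.43, adjusted p = 0.0261, held in 3 of 6 fits), and LOC100263160 had 1.41, 1.24 and 0.21 FPKM at EL38, against 11.3, 6.30 and 5.86 FPKM at EL36 (log2 fold change -3.21, SE 0.62, adjusted p = 0.0409, held in 0 of 6 fits). Caffeic acid O-methyltransferase (LOC100232862), of lignin synthesis, had 20.8, 33.6 and 39.6 FPKM at EL38, against 100.8, 80.8 and 87.8 FPKM at EL36 (log2 fold change -1.65, SE 0.33, adjusted p = 0.0429, held in 0 of 6 fits). At the end of another branch, 1 of 34 stilbene synthases rose and 0 fell (2.94% called, against 1.34% of all genes). In this list 3 genes were higher and 6 lower at an unadjusted p under 0.05, and DESeq2 called 1 higher and 3 lower. The call was the resveratrol synthase LOC100241164, with 8.22, 14.4 and 4.68 FPKM at EL38, against 1.01, 1.35 and 0.46 FPKM at EL36 (log2 fold change 3.15, SE 0.56, adjusted p = 0.0316, held in 0 of 6 fits). Stilbene synthases are near-identical copies, and its value is uncertain for that reason. In the lipoxygenase list of 30 genes, 1 rose and 1 fell (6.67% called), with 3 higher and 6 lower at an unadjusted p under 0.05. The lipoxygenase gene LOX, of an enzyme class that oxidizes fatty acids, rose (log2 fold change 2.20, SE 0.44, adjusted p = 0.0454). Allene oxide synthase (LOC100267750), which leads to jasmonate, fell, with 19.9, 31.3 and 16.1 FPKM at EL38, against 126, 52.4 and 148 FPKM at EL36 (log2 fold change -2.44, SE 0.44, adjusted p = 0.0324). They held in 0 and 1 of 6 fits.

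The pathways of Muscat aroma and of skin colour had no call between these stages. Terpene aroma compounds are built from precursors of the plastid MEP and the cytosolic mevalonate pathways and finished by terpene synthases. Of 11 MEP genes, 12 mevalonate genes and 9 terpene synthases tested by edgeR, 0 passed, with 0, 3 and 2 at an unadjusted p under 0.05, and DESeq2 called 0, 1 and 0. The most abundant MEP gene, 4-hydroxy-3-methylbut-2-enyl diphosphate reductase (LOC100267479), which catalyses the last step, had a log2 fold change of 0.18 (SE 0.31, adjusted p = 0.843), and the isopentenyl-diphosphate isomerase LOC100253066 one of -0.12 (SE 0.37, adjusted p = 0.914). Only 9 of the 69 genes annotated as terpene synthases passed the filter on low counts, and all 35 listed in these samples summed to 14.1 to 25.3 FPKM at EL38 and 6.07 to 20.4 FPKM at EL36, so most of this family was not testable at this depth. Of 66 flavonoid and anthocyanin genes 0 passed, with 10 at an unadjusted p under 0.05 and 3 called by DESeq2. Over all genes, 2554 of 18152 were at an unadjusted p under 0.05. Chalcone synthase CHS3, at the entry to anthocyanins, had 1477, 506 and 234 FPKM at EL38, against 1091, 892 and 304 FPKM at EL36 (log2 fold change -0.21, SE 0.62, adjusted p = 0.916). Its levels varied several-fold within each stage. Lists of photosynthesis (70 tested), lipid transfer and wax (47), histones and cell division (135), seed storage (22) and ribosomal proteins (324) also had 0 calls by edgeR, with 11, 2, 17, 2 and 20 genes at an unadjusted p under 0.05 and 2, 1, 6, 1 and 1 called by DESeq2.

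The same step was set beside that of the other cultivars. In their own 6 samples, EL38 over EL36 gave 2 called genes of 16994 in Italia (0.0118%) and 0 of 16571 in Xiangfei, with 1001 and 1072 at an unadjusted p under 0.05 and 146 and 387 called by DESeq2. Of the 154 genes that fell in Zaomeiguixiang, 140 were tested in Italia, with 95 positive and 45 negative log2 fold changes (median 0.34), and 149 in Xiangfei, with 51 positive and 98 negative (median -0.44). Of the 90 genes that rose in Zaomeiguixiang, 81 were tested in Italia, with 51 positive and 30 negative (median 0.22), and 78 in Xiangfei, with 45 positive and 33 negative (median 0.37). None of the 244 was called in either. The stages are set by appearance and sugar, and berries of 1 stage need not be equally ripe in different cultivars. The authors measured lower soluble solids, a measure of sugar, in Italia than in Zaomeiguixiang and Xiangfei at both EL36 and EL38. Without Xiangfei EL38 replicate 3, 150 of the 154 were tested, with 59 positive and 91 negative (median -0.41), and 83 of the 90, with 45 positive and 38 negative (median 0.25), and 0 genes were called in Xiangfei alone, with 1787 at an unadjusted p under 0.05.

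The difference itself was tested in a fit of 18 samples. For Zaomeiguixiang minus Italia 0 of 20162 genes passed, with 1428 at an unadjusted p under 0.05, a smallest adjusted p of 0.0838 and 224 called by DESeq2. Genes that shared this smallest value included inorganic pyrophosphatase 2, the small heat shock genes LOC100249153, LOC100243983, LOC100263588 and LOC100268056, and SPX domain-containing protein 1. SPX domain-containing protein 1 had 65.6, 13.6 and 7.58 FPKM in Italia at EL38 and 5.54, 7.28 and 12.6 FPKM in Italia at EL36 (difference in log2 fold change -6.52, SE 1.125). For Zaomeiguixiang minus Xiangfei 30 genes passed (0.149%), 13 with a positive (0.0645%) and 17 with a negative difference (0.0843%), and 12 of them were also called in Zaomeiguixiang alone. The count was 20, 15 and 17 without Zaomeiguixiang EL36 replicate 1, 2 and 3, and 15, 12 and 27 without Zaomeiguixiang EL38 replicate 1, 2 and 3. Without Xiangfei EL38 replicate 3 it was 149, and all 30 genes kept their call and sign. The gibberellin 2-beta-dioxygenase LOC100264177 was among the 30, with 9.00, 5.30 and 6.21 FPKM in Xiangfei at EL38 and 12.4, 3.64 and 2.72 FPKM in Xiangfei at EL36. Its high level in EL36 berries was thus seen in Zaomeiguixiang and not in Xiangfei (difference -4.86, SE 0.79, adjusted p = 0.0152, and -5.13 with an adjusted p of 0.0111 without Xiangfei EL38 replicate 3). In Italia it had 3.47, 5.23 and 8.22 FPKM at EL38, against 2.42, 14.0 and 14.2 FPKM at EL36, and that difference did not pass (-3.54, SE 0.77, adjusted p = 0.186). The ethylene response factor RAP2-3 (LOC100249982), chosen after its values were seen, fell in Zaomeiguixiang, with 0.25, 1.55 and 0.86 FPKM at EL38, against 17.2, 12.7 and 8.85 FPKM at EL36, and had 6.90, 8.86 and 19.7 FPKM in Xiangfei at EL38 and 2.16, 3.02 and 0.97 FPKM in Xiangfei at EL36 (difference -6.36, SE 1.02, adjusted p = 0.0136, and -6.17 with an adjusted p of 0.0184 without that sample).

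**Figure D5:**
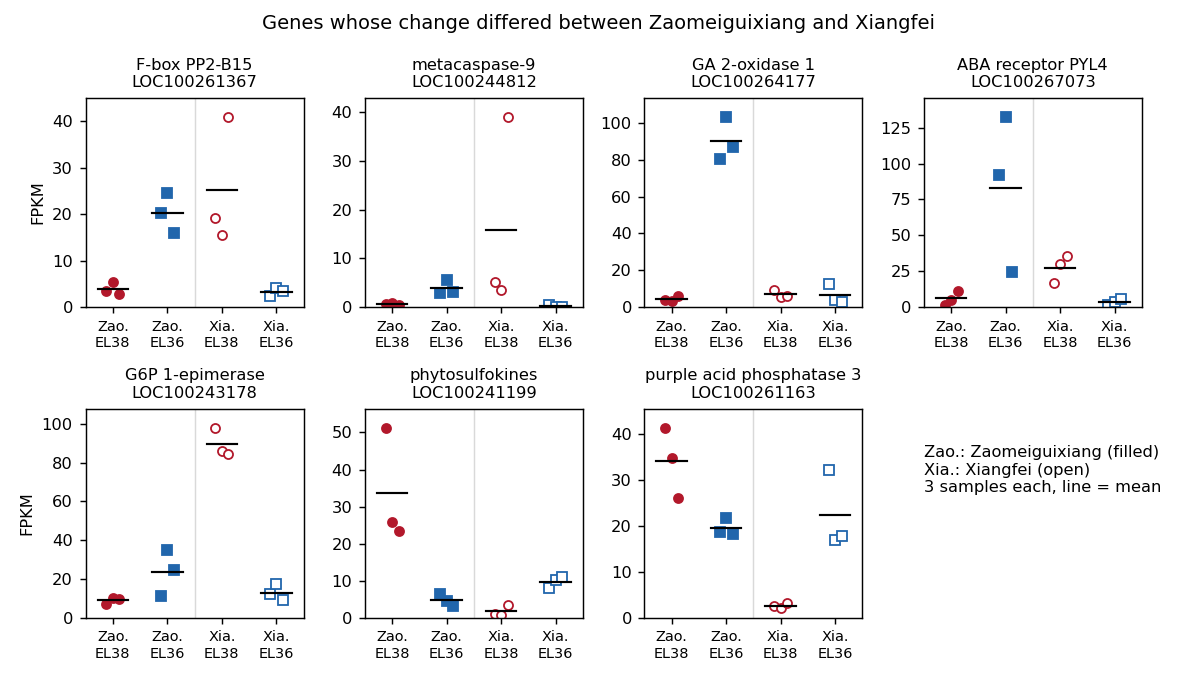
FPKM of 7 genes whose change from EL36 to EL38 differed between Zaomeiguixiang (filled) and Xiangfei (open), with 3 samples in each group and a line at their mean. Gibberellin 2-oxidase 1 has 80.3, 103 and 86.9 FPKM in Zaomeiguixiang at EL36 and stays under 15 FPKM in the other 3 groups, while the F-box protein, metacaspase-9 and PYL4 are lower at EL38 in Zaomeiguixiang and higher at EL38 in Xiangfei.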

How the data were processed

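RNA of whole-berry pools was sequenced on Illumina HiSeq2000. The authors filtered the reads, aligned them with HISAT to the V2 grapevine genome to find transcripts beyond the reference, merged these with the reference, mapped to the merged set with Bowtie2, and deposited RSEM's expected counts (not normalized) and FPKM values per gene. Only genes above 0 are listed, so an unlisted gene was taken as 0. The authors state DESeq2 as their test.

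Expected counts were rounded and tested with edgeR 4.0.16 (quasi-likelihood, TMM, default low-count filter) in R 4.3.3, on the 6 samples. Genes with a Benjamini-Hochberg adjusted p up to 0.05 were called. The standard error (SE) was taken as the absolute log2 fold change divided by the root of the F statistic. Differences between cultivars used 1 fit of 18 samples with stage by cultivar contrasts. FPKM served as description only, with a pseudocount of 1 for similarity. Ratios of low-count genes carry 95% intervals, and the floor was 3 counts. These cover counting error only. Alternatives were DESeq2 1.42.0, other scalings, no filter, larger fits, a replicate block, reference genes only, the study's threshold, and each sample left out. The fits without Xiangfei EL38 replicate 3 were added after seeing the data.

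Counts were simulated with the common dispersion of these samples for every gene, and only well-counted genes were given a change. In them edgeR recovered 26 of the 100 genes given a log2 change of 2 and 99 of the 100 given one of 4. It made 5 false calls of 18478 genes. DESeq2 recovered 51 and 99, with 39 false calls of 23809. Spread that differs between genes was not simulated, so these figures need not hold for the real samples. The recovery does not cover low-count genes such as most terpene synthases.

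The lists matched words in gene descriptions. Genes named were, among called genes with separate groups and a mean of at least 5 FPKM in the higher stage, the 12 largest changes each way, the 4 most abundant calls each way, up to 3 calls each way in each list (with no call, its most abundant member), and the 5 smallest adjusted p of each cultivar difference. Others are marked in the text. Members and lists were chosen with earlier results of these data known. No sequence or coordinate is given, as the reference table is of another assembly.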

Additional observations from a re-analysis of the deposited data

Results flagged for a closer look

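The change from EL36 to EL38 differed between Zaomeiguixiang and Xiangfei, in the test of the difference itself, for 7 of the genes named by the rule. Over all genes, 30 of 20162 passed (0.149%). Of the 7, 5 were named for having the smallest adjusted p of this same contrast, so their passing is no separate result. Only LOC100264177 and LOC100267073 were named on other grounds. RAP2-3 (LOC100249982) and ABCC3 (LOC100254999, difference 3.77, SE 0.62, adjusted p = 0.0158), named outside it, also passed. F-box protein PP2-B15 (LOC100261367) had 3.51, 5.31 and 2.74 FPKM in Zaomeiguixiang at EL38 and 20.2, 24.7 and 16.0 FPKM at EL36, and 19.2, 15.5 and 41.0 FPKM in Xiangfei at EL38 and 2.41, 4.17 and 3.38 FPKM at EL36 (difference in log2 fold change -5.23, SE 0.65, adjusted p = 0.00617). Metacaspase-9 (LOC100244812), a protease of plant cell death, had 0.58, 0.81 and 0.42 FPKM in Zaomeiguixiang at EL38 and 2.83, 5.56 and 3.04 FPKM at EL36, and 5.16, 3.46 and 39.1 FPKM in Xiangfei at EL38 and 0.35, 0.04 and 0.04 FPKM at EL36 (-9.34, SE 1.36, adjusted p = 0.00847). It was not called in Zaomeiguixiang alone (adjusted p = 0.0909). The highest value of each gene in Xiangfei is that of EL38 replicate 3, the sample with the seed transcripts, and without it the differences were -5.08 (adjusted p = 0.00869) for LOC100261367 and -8.10 (adjusted p = 0.0128) for LOC100244812.

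The putative glucose-6-phosphate 1-epimerase LOC100243178 had 7.17, 10.3 and 9.76 FPKM in Zaomeiguixiang at EL38 and 11.1, 35.2 and 24.8 FPKM at EL36, and 98.1, 86.0 and 84.4 FPKM in Xiangfei at EL38 and 12.1, 17.3 and 9.29 FPKM at EL36 (-4.24, SE 0.62, adjusted p = 0.00847), and was not called in Zaomeiguixiang alone either (adjusted p = 0.104). For the abscisic acid receptor PYL4 (LOC100267073) the difference was -6.59 (SE 1.19, adjusted p = 0.0321), with 16.9, 29.9 and 35.6 FPKM in Xiangfei at EL38 and 1.15, 3.30 and 5.75 FPKM at EL36, and for the gibberellin 2-beta-dioxygenase LOC100264177 it was -4.86 (SE 0.79, adjusted p = 0.0152). Without that sample these 3 differences were -4.49, -6.66 and -5.13, in the same order and each past the threshold.

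The other 2 differences were positive. The gene of phytosulfokines (LOC100241199), precursors of a growth peptide, had 51.3, 25.9 and 23.4 FPKM in Zaomeiguixiang at EL38 and 6.43, 4.52 and 3.20 FPKM at EL36, and 1.12, 0.61 and 3.49 FPKM in Xiangfei at EL38 and 8.05, 10.1 and 10.9 FPKM at EL36 (5.42, SE 0.80, adjusted p = 0.00847). Purple acid phosphatase 3 (LOC100261163), of enzymes that free phosphate, had 41.3, 34.8 and 26.1 FPKM in Zaomeiguixiang at EL38 and 18.7, 21.7 and 18.1 FPKM at EL36, and 2.46, 2.08 and 3.19 FPKM in Xiangfei at EL38 and 32.2, 17.0 and 17.8 FPKM at EL36 (3.76, SE 0.51, adjusted p = 0.00847). It was not called in Zaomeiguixiang alone (log2 fold change 0.69, SE 0.27, adjusted p = 0.285). Without Xiangfei EL38 replicate 3 the differences were 5.96 for LOC100241199 and 3.66 for LOC100261163.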

How the results depend on the processing

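No call reversed its sign in any alternative. With groups separate in FPKM for every call, a reversal was unlikely beforehand. The 244 calls (90 higher, 154 lower) became 907 (332 and 575) with DESeq2, 264 (86 and 178) with DESeq2's size factors, 159 (62 and 97) with total counts, 711 (252 and 459) without the filter, 142 (41 and 101) with all 9 Zaomeiguixiang samples, 21 (2 and 19) with all 27 samples, and 275 (98 and 177) with reference genes only. At the study's threshold, a fold of 2 and an adjusted p of at most 0.001, edgeR called 0 genes and DESeq2 301. With a sample left out, the count ran from 47 to 135 (higher 13 to 58, lower 29 to 99). Of the 244, DESeq2 called 243, total counts 157, the fit of 9 samples 133 and that of 27 samples 20. Total counts set the median of all genes at 0.15, against 0.04.

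Samples with the same replicate number did not deviate together (r of their deviations from the group means -0.02, 0.04 and 0.05), and with the replicate block 124 genes were called (43 higher, 81 lower), 108 of them among the 244.

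For Zaomeiguixiang minus Italia the count of 0 became 224 with DESeq2, 12 without the filter, 1 with all 27 samples, 0 with the replicate block and 0 to 3 with a sample left out. For Zaomeiguixiang minus Xiangfei the 30 became 377 with DESeq2, 68 without the filter, 16 with the replicate block, 12 to 27 with a Zaomeiguixiang sample left out and 149 without Xiangfei EL38 replicate 3. The cause of these shifts was not tested. Over the 73 called genes named by the rule, 639 of 1022 values under alternatives stayed past the threshold, 383 did not and 0 reversed.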

Other observations

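Other gene groups were read as counts only, from lists assembled after values were seen. Of 524 genes of receptor-like kinases and proteins, which sense signals at the cell surface, 6 rose and 12 fell (3.44%, against 1.34% of all genes). The list was balanced at an unadjusted p under 0.05, with 50 higher and 47 lower, and its median log2 fold change was -0.004. Among those that fell, the kinase LOC100253626 had 3.17, 3.49 and 1.83 FPKM at EL38, against 38.7, 23.4 and 31.1 FPKM at EL36 (log2 fold change -3.55, SE 0.39, adjusted p = 0.00622), and receptor-like protein 12 (LOC100246778) had 2.35, 3.84 and 3.00 FPKM at EL38, against 37.95, 27.4 and 26.9 FPKM at EL36 (log2 fold change -3.39, SE 0.34, adjusted p = 0.00474). Of 112 ubiquitin ligases of the ATL and U-box kinds, which mark proteins for breakdown, 1 rose and 5 fell (5.36%), with 12 higher and 13 lower at an unadjusted p under 0.05. U-box domain-containing protein 19 (LOC100243339) was among those that fell, with 4.28, 5.35 and 3.44 FPKM at EL38, against 28.9, 32.8 and 25.7 FPKM at EL36 (log2 fold change -2.82, SE 0.28, adjusted p = 0.00474).

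The following 3 genes were picked after their values were seen and stand for no group. Ammonium transporter 1 member 1 (LOC100258016) had 51.0, 48.4 and 49.2 FPKM at EL38, against 209, 169 and 90.8 FPKM at EL36 (log2 fold change -1.79, SE 0.35, adjusted p = 0.0414), and asparagine synthetase (LOC100241610) had 2.80, 3.69 and 5.64 FPKM at EL38, against 9.82, 44.6 and 17.9 FPKM at EL36 (log2 fold change -2.62, SE 0.52, adjusted p = 0.0429). The transporter ABCC3 (LOC100254999) rose, with 157, 177 and 181 FPKM at EL38, against 63.6, 35.8 and 30.7 FPKM at EL36 (log2 fold change 1.88, SE 0.35, adjusted p = 0.0349).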
